A study of Mus musculus with 6 samples.

Results

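Antisense genes are transcribed from the strand opposite another gene, and most of those described here overlap a protein-coding gene. They were measured in the TM3 cell line with pyrotinib or its vehicle. The 379 members, chosen by their summed count, are the autosomal rows of the deposited table of counts that carry the antisense biotype and hold at least 60 reads summed over the 6 libraries, leaving out names that start with Snhg. They come from 2780 autosomal antisense rows, of which 1632 had at least 1 read, and from 54532 genes in all. For 359 of them a protein-coding gene on the other strand overlapped, and the gene with the longest overlap is called the sense gene. The other 20 had no such gene. The summed count chose the members, so their levels are given as a description. The rows next to that limit were Gm13091, 3010003L21Rik and Gm16268 inside it with 60 reads each, and Gm4793, Gm11816 and Gm15489 outside it with 59 each.

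TM3 is an established line of mouse Leydig cells, the cells of the testis that make testosterone, and pyrotinib is an irreversible inhibitor of the ErbB family of receptor tyrosine kinases. Cells received 100 nM pyrotinib for 48 h in 3 libraries, or 0.1‰ dimethyl sulfoxide (DMSO) for 48 h in 3 libraries, and all 6 come from the same line. The series concerns harm of the drug to the male reproductive system. Nothing in the labels tells whether the replicates are independent cultures, and the spread behind each p-value, that among 3 libraries a group, may be technical. Library totals were 15488289, 16118922 and 15743446 counts with pyrotinib and 15005737, 16171030 and 16113180 with DMSO. In bulk RNA, fewer cells with a transcript and less transcript per cell cannot be told apart.

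An antisense transcript can start near the promoter of its sense gene and run away from it, start inside the sense gene and run back through its introns, or run in from a gene downstream. Some act on the sense gene, as Airn does in silencing Igf2r on one parental chromosome. Others arise where transcription goes both ways from an open promoter, and are trimmed by the nuclear exosome. Most mammalian antisense RNAs have no assigned function.

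The library protocol in the labels describes no step that marks the strand, so reads from exon bases shared by both genes cannot be assigned to one of them. The counts show how such bases were treated. All 69 antisense rows whose exon bases lie entirely within protein-coding exons of the other strand had 0 reads in every library, although 28 of them lie opposite a gene of over 5 FPKM (a level scaled for gene length and depth), and up to 257 FPKM. The 38 rows that share over 90% and under 100% of their bases reached at most 17 reads summed over 6 libraries. Bases shared by both strands thus added no reads in the rows where every base is shared. Among the 359 pairs the shared part had a median of 8.17% of the antisense exon bases and a maximum of 63.4%. No base was shared in 110 pairs. Reads of unspliced sense RNA over an intron that holds an antisense exon can still be counted for the antisense gene, and their part in the results was not tested.

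**Figure D1:**
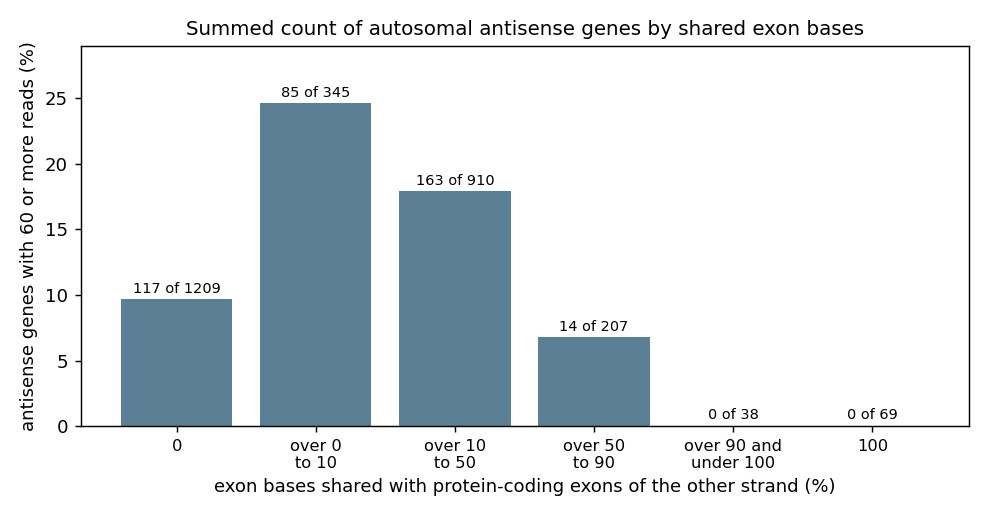
Percent of autosomal antisense genes with at least 60 reads summed over the 6 libraries (vertical axis, from 0) by the percent of their exon bases shared with protein-coding exons of the other strand (horizontal axis); numbers above the bars give genes with 60 reads of genes in the class. None of the 38 genes sharing over 90% and under 100% and none of the 69 sharing 100% reached 60 reads.

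Sequences of the members separate them from the sense gene. The first 60-base stretches below cross the junction of the first and second exons in the longest spliced GENCODE M21 transcript (build GRCm38, the same assembly as mm10), with the first exon in lower case and the second exon in capitals. They are shown for 3 members that fell and for Tug1, the most abundant member, which rose. The junctions span chr8:83576316-83583294 on the + strand, and chr9:69477757-69479501, chr1:189834918-189836258 and chr11:3645523-3646557 on the - strand.
D830024N08Rik: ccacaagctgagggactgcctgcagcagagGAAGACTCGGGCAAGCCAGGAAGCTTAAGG
Gm16144: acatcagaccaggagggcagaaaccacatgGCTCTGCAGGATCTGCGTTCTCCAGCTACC
Gm26574: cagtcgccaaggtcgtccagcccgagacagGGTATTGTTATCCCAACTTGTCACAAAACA
Tug1: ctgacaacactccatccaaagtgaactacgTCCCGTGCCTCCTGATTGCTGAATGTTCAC
A read across such a junction belongs to the antisense gene. Of the members, 337 have a spliced transcript in the annotation and 42 have a single exon. The shared bases are complementary between the partners, as a 30-base stretch from the middle of the longest run shared by Gm16144 and Anxa2 shows, each written in its own direction.
Gm16144: actctgccgtttggggagaacttcctcgtc
Anxa2: gacgaggaagttctccccaaacggcagagt

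Promoter sequences of RefSeq (build GRCm38.p6, 250 bases before to 50 after the start) were matched by symbol for 172 members, and 96 of these had a RefSeq start within 50 bp of the deposited start. Those 96 are used here. The 3 head-to-head members among them with the largest called rise and the 3 members inside a sense gene with the largest called fall are printed, with each CG dinucleotide in capitals. A head-to-head pair has its starts facing away from each other with the transcripts overlapping at their beginnings. The windows are chr5:122989104-122989403 (+ strand), chr1:192136648-192136947 (+ strand) and chr16:55974568-55974867 (- strand) for the first set. For the second set they are chr10:21342006-21342305 (- strand), chr9:49518038-49518337 (+ strand) and chr7:113564938-113565237 (- strand).
A930024E05Rik: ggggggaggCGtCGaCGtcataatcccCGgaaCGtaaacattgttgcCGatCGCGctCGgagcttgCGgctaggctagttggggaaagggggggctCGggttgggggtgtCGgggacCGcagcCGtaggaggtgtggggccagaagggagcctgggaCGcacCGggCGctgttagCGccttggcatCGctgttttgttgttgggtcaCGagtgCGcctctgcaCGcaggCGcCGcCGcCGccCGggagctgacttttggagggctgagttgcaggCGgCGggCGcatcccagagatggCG
Gm10516: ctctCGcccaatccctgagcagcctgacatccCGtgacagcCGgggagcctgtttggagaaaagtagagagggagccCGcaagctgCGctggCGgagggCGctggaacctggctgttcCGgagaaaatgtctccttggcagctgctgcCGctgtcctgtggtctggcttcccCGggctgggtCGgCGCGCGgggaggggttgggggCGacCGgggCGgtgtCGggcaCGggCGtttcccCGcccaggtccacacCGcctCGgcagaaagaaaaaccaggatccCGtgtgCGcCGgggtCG
Zbtb11os1: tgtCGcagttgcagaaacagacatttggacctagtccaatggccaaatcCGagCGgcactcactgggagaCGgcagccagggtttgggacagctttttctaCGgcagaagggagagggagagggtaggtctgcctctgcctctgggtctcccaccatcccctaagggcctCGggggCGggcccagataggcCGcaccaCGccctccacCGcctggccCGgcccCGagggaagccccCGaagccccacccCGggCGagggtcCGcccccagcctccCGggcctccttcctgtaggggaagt
4930455C13Rik: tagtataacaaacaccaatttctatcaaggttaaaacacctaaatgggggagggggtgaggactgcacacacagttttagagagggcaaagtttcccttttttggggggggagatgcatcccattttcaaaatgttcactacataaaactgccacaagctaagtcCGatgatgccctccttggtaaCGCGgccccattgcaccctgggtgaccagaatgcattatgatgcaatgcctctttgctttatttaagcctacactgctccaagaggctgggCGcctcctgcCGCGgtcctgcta
Gm11149: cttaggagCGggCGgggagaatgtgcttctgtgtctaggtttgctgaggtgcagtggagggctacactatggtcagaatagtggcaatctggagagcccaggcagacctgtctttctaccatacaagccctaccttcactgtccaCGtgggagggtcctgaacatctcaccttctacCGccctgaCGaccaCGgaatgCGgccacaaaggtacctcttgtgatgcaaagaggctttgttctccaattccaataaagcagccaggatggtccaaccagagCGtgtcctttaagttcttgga
Far1os: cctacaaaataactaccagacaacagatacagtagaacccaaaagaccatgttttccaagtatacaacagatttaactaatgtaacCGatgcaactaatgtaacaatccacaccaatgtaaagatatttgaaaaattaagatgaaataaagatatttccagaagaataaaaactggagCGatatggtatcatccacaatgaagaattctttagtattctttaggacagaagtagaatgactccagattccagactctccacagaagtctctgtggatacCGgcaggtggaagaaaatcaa
The folds of these 6 members are given with the results, except for 4930455C13Rik inside Hbs1l and Gm11149 inside Ncam1. Their log2 fold changes were -1.28 and -0.97 (edgeR adjusted p = 0.027 and 0.0225), and each kept its call in 2 of the 6 fits that left out a library, with adjusted p of up to 0.137 and 0.0763. The head-to-head windows printed hold 31, 27 and 17 CG dinucleotides, and those inside a sense gene hold 6, 8 and 3. Over all matched members the median was 17 for the 25 head-to-head promoters (range 3 to 37) and 6 for the 45 inside a sense gene (range 1 to 42). All 32851 promoters of the table had a median of 7. The GC box GGGCGG, searched on both strands, was found in 16 of the 25 head-to-head windows and in 12 of the 45 inside a sense gene, against 35.7% of all promoters. The AP-1 motif TGANTCA, on both strands, was in 6 of the 96 windows and in 7.81% of all promoters. The TATA motif TATAAA, on both strands, was in 5 of the 96 and in 13.6% of all. A match describes the letters in these windows and does not show binding.

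Members were rare transcripts with a few abundant exceptions. They held 0.140%, 0.129% and 0.147% of all counts in the pyrotinib libraries, and 0.124%, 0.125% and 0.124% in the DMSO libraries. Scaled by TMM, their summed CPM was 1386, 1282 and 1459 with pyrotinib and 1239, 1289 and 1246 with DMSO, so the groups overlapped. Without Tug1 they overlapped too, at 1136.3, 1073.0 and 1174.5 CPM with pyrotinib and 1069.8, 1146.8 and 1091.5 CPM with DMSO. The median sum of a member was 156 reads, 119 members had fewer than 100 and 13 had at least 1000. Tug1 alone took 15.3% of the members' 124447 reads, and the 10 most abundant took 38.0%. Members lay on all 19 autosomes, from 2 on chromosome 18 to 36 on chromosome 7. Measured per length, the mean FPKM of the antisense gene was a median of 0.151 times that of its sense gene, and in 145 pairs it was under 0.1 times. In 43 pairs the antisense gene was above the sense gene in every library. These include Kcnq1ot1 over Kcnq1, which had 1 read in all, and Rab26os over Rab26. In 7 of the 43 the sense gene is listed at 0 FPKM in every library, among them Eps8l3 opposite 4933431E20Rik and Itga9 opposite Gm2415. The others are Gm49354, Gm28308, Atp5o, Hist2h2aa1 and Hist2h2aa2, opposite Etohd2, Hoxaas3, Gm10785, Gm20633 and Gm20632. Gm49354 and Gm28308 are readthrough models that share exons with other genes, both histone genes are near-identical copies, and the model of Atp5o, an ATP synthase subunit gene, stands beside another row of that symbol that has reads. The 0 of these 5 is therefore uncertain. Rab26os averaged 2.98 ± 0.501 CPM with pyrotinib and 4.10 ± 0.751 CPM with DMSO, a difference that did not pass (edgeR adjusted p = 0.189).

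The comparison of pyrotinib with DMSO was made with edgeR's quasi-likelihood test over all 14125 genes that passed its filter on low counts, with p-values adjusted by Benjamini-Hochberg over all of them and a threshold of 0.05. Of the 379 members, 361 passed that filter. Among these 26 were higher with pyrotinib and 34 were lower, 16.6% in all, against 26.0% of all tested genes. By direction that is 7.20% and 9.42% of members, against 13.2% and 12.8% of all genes. Protein-coding genes were called in 27.8%, with 14.3% higher and 13.5% lower, and long intergenic RNAs in 19.3%, with 13.0% higher and 6.35% lower. The libraries of the groups did not overlap in 50 members with pyrotinib above and 77 with pyrotinib below, 35.2% in all, against 20.6% and 20.3% of all genes, 40.9% in all. Members are measured on fewer reads, with a median of 1.76 CPM (counts scaled to library size by TMM) against 21.7 CPM for all tested genes. The median log2 fold change was -0.02 for tested members and 0.00 for all tested genes. Called members changed by a median of 2.08-fold, and 34 of the 60 changed at least 2-fold. Among all tested genes 436 of the 3667 called changed at least 2-fold. Small changes are less likely to pass on few reads, so these counts are not comparable. With a correction for transcript GC content the split was 18 higher and 41 lower, beside 13.5% higher and 14.5% lower of all genes.

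Calls rested on individual libraries to an unequal degree, among members as among all genes. With DMSO replicate 2 left out 23 members were called, beside 13.5% of all genes, and with DMSO replicate 3 left out 38, beside 16.9%. The count was 39, beside 17.7% of all genes, when pyrotinib replicate 1 was removed and 33, beside 14.9%, when replicate 3 was. DMSO replicate 2 was the highest of the DMSO libraries in 23 of the 34 lower members, and in 70.0% of all lower genes. Slopes on transcript GC content were taken for log2 CPM less the mean of the DMSO libraries. They were -0.24 and -0.27 per 10 points in pyrotinib replicates 1 and 3, while the other 4 lay between -0.01 and 0.02. The DMSO slopes balance each other by construction, so a slope common to the DMSO libraries cannot be seen. The mitochondrial share of counts was 3.49%, 2.70% and 3.60% with pyrotinib and 2.16%, 2.03% and 2.14% with DMSO. Values with a correction for GC content are given beside the results they move, and the part of the mitochondrial share in the results was not tested. Of the Leydig markers only Star and Insl3 passed the filter, summed marker levels were 6.15 to 7.74 CPM with pyrotinib and 4.37 to 5.50 CPM with DMSO, and Lhcgr and Hsd3b6 had no read. Markers of Sertoli cells summed to at most 0.676 CPM those of germ cells to at most 1.79, of macrophages to at most 3.99 and of endothelial cells to at most 1.40 CPM in any library. Stromal and peritubular markers summed to 17992 to 19085 CPM with pyrotinib and 19230 to 19742 CPM with DMSO.

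In each fit that left out 1 library, 18 of the 60 called members were called again, 6 higher and 12 lower, and all 18 were called with the GC correction too. Of the 12 lower ones 11 lie inside a sense gene, as do 22 of all 34 lower members and 181 of the 379 members. Of the 6 higher ones 3 do, as do 6 of all 26 higher members. The share of all called genes that hold in the same way is not given here. The plot of CPM by library shows all 18.

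**Figure D2:**
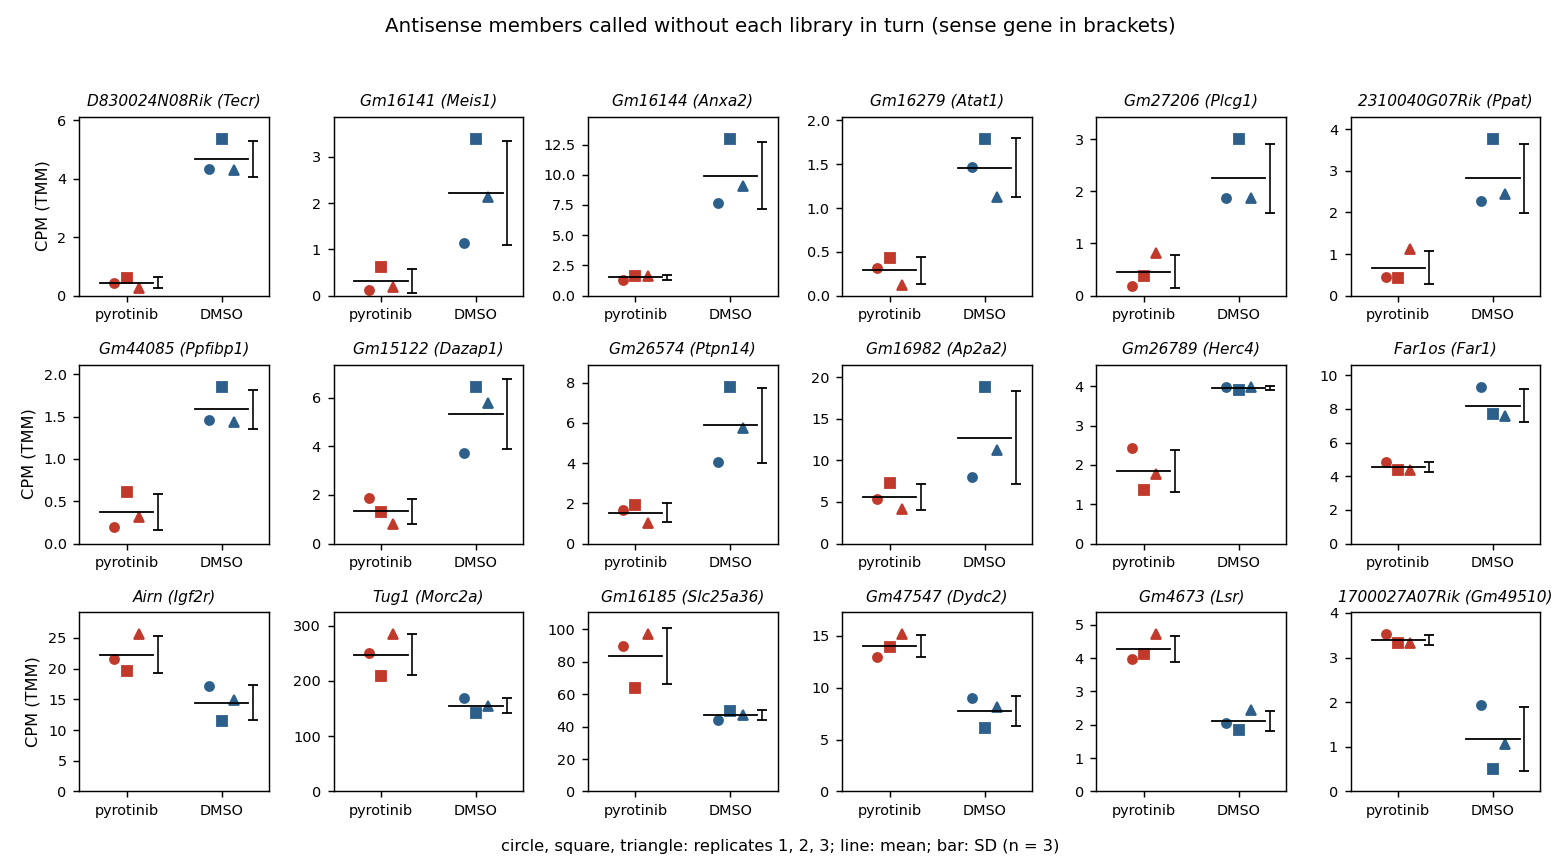
TMM-scaled CPM per library (vertical axes, from 0) of the 18 antisense members called without each library in turn, in pyrotinib (left, red) and DMSO (right, blue); markers are replicates 1 to 3, lines are means and bars are SD (n = 3). In the 12 lower members every pyrotinib library lies below every DMSO library, and in the 6 higher members every pyrotinib library lies above.

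The deepest falls among members of at least 1 CPM on average were inside a sense gene. D830024N08Rik (chr8:83576044-83585919, + strand) lies inside Tecr, the gene of the reductase of the last step of very-long-chain fatty acid elongation, and it shares no exon base with Tecr. It had 0.448, 0.615 and 0.251 CPM in pyrotinib libraries, against 4.33, 5.38 and 4.30 CPM in DMSO libraries. It fell by 3.39 ± 0.36 on the log2 scale (SE; adjusted p = 8.1e-06, edgeR), with no overlap between the groups. Tecr itself averaged 103 ± 14.7 CPM with pyrotinib and 126 ± 4.08 CPM with DMSO (SD, n = 3 each). Its log2 fold change was -0.28 (edgeR adjusted p = 0.0398), a call lost without any single library except pyrotinib replicate 2 (adjusted p 0.0833 to 0.231) and with the GC correction (0.123). The ratio of D830024N08Rik to Tecr fell by 2.84 ± 0.36 on the log2 scale (limma adjusted p = 5.94e-07).

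Gm16144 (chr9:69477029-69479598, - strand) lies inside Anxa2, which encodes a calcium-dependent membrane-binding annexin, and shares 98 of its 827 exon bases with Anxa2 exons. It had 1.28, 1.66 and 1.63 CPM in pyrotinib libraries, against 7.66, 13.0 and 9.11 CPM in DMSO libraries. The groups lie far apart, and among DMSO libraries replicate 2 was highest. The log2 fold change was -2.70 ± 0.25 (edgeR adjusted p = 1.69e-06). Anxa2 averaged 464 ± 66.0 CPM with pyrotinib and 586 ± 26.7 CPM with DMSO, a log2 fold change of -0.34 (edgeR adjusted p = 0.0136). Adjusted p was 0.0538 and 0.0600 with DMSO replicate 2 and then 3 left out, and 0.0900 and 0.0797 with pyrotinib replicate 1 and then 3 left out. The ratio of the pair fell by 2.24 ± 0.26 on the log2 scale (limma adjusted p = 5.72e-08).

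Gm15122 (chr10:80282444-80283006, - strand) is opposite Dazap1, an RNA-binding protein gene, and here both partners fell. Gm15122 had 1.86, 1.29 and 0.817 CPM in pyrotinib libraries, against 3.73, 6.46 and 5.80 CPM in DMSO libraries. Its log2 fold change was -2.01 ± 0.32 (edgeR adjusted p = 0.000262), and the groups did not overlap. Dazap1 had 46.4, 69.7 and 48.1 CPM in pyrotinib libraries, against 104, 124 and 99.6 CPM in DMSO libraries. Its log2 fold change of -0.99 (edgeR adjusted p = 5.11e-05) was called without each library in turn. The ratio fell by 0.93 ± 0.32 (limma adjusted p = 0.0373). Leaving out DMSO replicate 2, DMSO replicate 3, pyrotinib replicate 2 or pyrotinib replicate 3 ended that ratio call (adjusted p 0.116, 0.176, 0.124 and 0.161).

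Further called falls inside a sense gene were held without each library in turn. Gm26574, inside Ptpn14, a tyrosine phosphatase gene, had 1.66, 1.90 and 1.01 CPM in pyrotinib libraries, against 4.06, 7.81 and 5.74 CPM in DMSO libraries. Gm16141, inside the homeobox gene Meis1, had 0.128, 0.615 and 0.189 CPM in pyrotinib libraries, against 1.13, 3.39 and 2.12 CPM in DMSO libraries. Gm27206 lies inside Plcg1, the phospholipase C that receptor tyrosine kinases activate. It averaged 0.459 ± 0.322 CPM with pyrotinib and 2.25 ± 0.658 CPM with DMSO. 2310040G07Rik lies inside Ppat, the first committed enzyme of purine synthesis, and averaged 0.670 ± 0.400 CPM with pyrotinib and 2.82 ± 0.828 CPM with DMSO. In these 4 the groups did not overlap. Their log2 fold changes were -1.94 for Gm26574, -2.80 for Gm16141, -2.27 for Gm27206 and -2.06 for 2310040G07Rik, with edgeR adjusted p of 0.000245, 0.00163, 0.00227 and 0.00194 in that order. The ratio to the sense gene fell in each (limma adjusted p at most 0.00375). Of their sense genes only Plcg1 was called, at a log2 fold change of -0.27 (edgeR adjusted p = 0.0372). Leaving out any single library except pyrotinib replicate 2 ended that call for Plcg1 (adjusted p 0.0680 to 0.170), as did the GC correction (0.067). With that correction Ppat and Meis1 were lower instead, at -0.34 and -0.35 (adjusted p = 0.00307 and 0.00578).

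Gm12867, inside the glucose transporter gene Slc2a1, and Gm17029 and 4930422M22Rik, which overlap the ends of the peroxisomal import gene Pex14 and the centrosome gene Cep70, also fell. Their log2 fold changes were -1.85, -1.85 and -1.63, and edgeR adjusted p were 0.00388, 0.00871 and 0.00653. Without DMSO replicate 2 each call was lost, with adjusted p of 0.0552, 0.0918 and 0.0644. Gm12786, inside Ssbp3, had a log2 fold change of -1.37 (edgeR adjusted p = 0.0136). Leaving out DMSO replicate 2, DMSO replicate 3 or pyrotinib replicate 3 ended the call (adjusted p 0.0680, 0.0518 and 0.0659). Gm12207, which has no sense gene, had -1.51 (edgeR adjusted p = 0.0356) and kept its call in 2 of the 6 fits that left out a library, the others being those with DMSO replicate 2 or 3 removed (adjusted p 0.213 and 0.0667) and with pyrotinib replicate 1 or 3 removed (0.143 and 0.0612). Pex14 fell with its antisense gene, with 13.1 ± 2.31 CPM with pyrotinib and 21.7 ± 2.22 CPM with DMSO (edgeR adjusted p = 0.00154). The calls of 5 more lower members held without each library and are named after their values were seen. They are Far1os, Gm16982, Gm26789, Gm44085 and Gm16279, with log2 fold changes of -0.85, -1.18, -1.10, -2.06 and -2.29. Far1os had 4.86, 4.36 and 4.40 CPM in pyrotinib libraries, against 9.33, 7.68 and 7.55 CPM in DMSO libraries, while Far1, a fatty acyl-CoA reductase gene, averaged 165 ± 29.8 CPM with pyrotinib and 166 ± 4.17 CPM with DMSO. With the GC correction Far1 was lower too, at -0.29 (adjusted p = 0.00396). The ratio of Far1os to Far1, which fell by 0.81 on the log2 scale (limma adjusted p = 0.00802), then no longer passed (0.0672).

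The higher members were led in abundance by Tug1 (chr11:3639785-3649673, - strand), a long RNA that starts 179 bp from the start of Morc2a, a chromatin ATPase gene, and runs the other way. Tug1 had 250, 209 and 284 CPM in pyrotinib libraries, against 169, 142 and 154 CPM in DMSO libraries. Every pyrotinib library was above every DMSO library. The log2 fold change was 0.68 ± 0.10 (SE; edgeR adjusted p = 0.0002), or 1.60-fold. With the GC correction it was 0.41 (adjusted p = 0.00042), and with pyrotinib replicate 2 alone 0.44 (adjusted p = 0.017). The GC content of Tug1 is 37.9%. Morc2a had 94.1, 88.7 and 91.8 CPM in pyrotinib libraries, against 73.7, 68.9 and 72.8 CPM in DMSO libraries, a log2 fold change of 0.35 ± 0.08 (edgeR adjusted p = 0.00525). The ratio of Tug1 to Morc2a was 0.32 ± 0.11 higher on the log2 scale (limma adjusted p = 0.0444), but with the GC correction it was -0.21 (adjusted p = 0.237). Leaving out DMSO replicate 2, DMSO replicate 3, pyrotinib replicate 1 or pyrotinib replicate 3 ended the ratio call (adjusted p 0.116, 0.142, 0.0941 and 0.278).

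Gm16185 (chr9:97085326-97088610, + strand) lies inside Slc25a36, the gene of a mitochondrial carrier of pyrimidine nucleotides, and rose with it. Gm16185 had 89.6, 64.1 and 96.9 CPM in pyrotinib libraries, against 44.1, 49.9 and 47.3 CPM in DMSO libraries (log2 fold change 0.83 ± 0.12, edgeR adjusted p = 0.000161). Slc25a36 had 378, 313 and 361 CPM in pyrotinib libraries, against 246, 213 and 228 CPM in DMSO libraries (log2 fold change 0.62 ± 0.09, edgeR adjusted p = 0.000125). Neither gene's groups overlapped, and pyrotinib replicate 2 was the lowest pyrotinib library for both. The GC content of Gm16185 is 33.6%, and corrected for GC it was higher by 0.48 on the log2 scale (adjusted p = 0.000326). The ratio of the pair did not pass, at 0.19 ± 0.12 on the log2 scale (limma adjusted p = 0.295).

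Imprinted and developmental antisense RNAs were described from a list of 78 names, of which 13 are members. Of the 30 tested genes of the whole list 6 were higher and 3 lower, with a median log2 fold change of 0.00. Among all tested genes 13.2% were higher and 12.8% lower. Of the 13 members 4 passed, all higher with pyrotinib, and 9 did not pass. Among all tested members 7.20% were higher and 9.42% lower. Of these 4 only Airn kept its call without each library in turn. Airn (chr17:12741311-12860136, + strand), which silences Igf2r in cis on the paternal chromosome, had 21.6, 19.7 and 25.6 CPM in pyrotinib libraries, against 17.1, 11.4 and 14.9 CPM in DMSO libraries. The groups did not overlap, and the log2 fold change was 0.62 ± 0.15 (edgeR adjusted p = 0.00583). Igf2r, the mannose-6-phosphate receptor gene, had 14.3, 13.6 and 12.9 CPM in pyrotinib libraries, against 10.5, 10.2 and 12.4 CPM in DMSO libraries. That difference did not pass (log2 fold change 0.30, edgeR adjusted p = 0.125). Measured per length, Airn averaged 3.86 times the FPKM of Igf2r. Kcnq1ot1, which silences the Kcnq1 domain in cis, had 41.4, 37.9 and 48.2 CPM in pyrotinib libraries, against 36.8, 40.6 and 39.2 CPM in DMSO libraries. The groups overlapped (log2 fold change 0.13, edgeR adjusted p = 0.405).

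Dnm3os, the host of a microRNA cluster within the dynamin gene Dnm3, averaged 31.5 ± 4.80 CPM with pyrotinib and 22.2 ± 5.33 CPM with DMSO (log2 fold change 0.50, edgeR adjusted p = 0.0235). Without DMSO replicate 2 or pyrotinib replicate 3 its adjusted p was 0.152 or 0.129, and with the GC correction 0.225. Dnm3os was far above its sense gene, at 18.1 times the FPKM of Dnm3. Wt1os averaged 10.3 ± 1.33 CPM with pyrotinib and 7.15 ± 1.23 CPM with DMSO (log2 fold change 0.53, edgeR adjusted p = 0.0359). For Wt1os the adjusted p reached 0.173 without DMSO replicate 2 and was 0.0813, 0.0537 and 0.160 without DMSO replicate 3 and pyrotinib replicates 1 and 3. With the GC correction it was 0.0577. The sense gene of Wt1os is the readthrough model Gm11060, which shares exons with another gene and did not pass the filter. Emx2os, which runs away from the homeobox gene Emx2, averaged 7.57 ± 1.99 CPM with pyrotinib and 4.43 ± 1.22 CPM with DMSO (log2 fold change 0.77, edgeR adjusted p = 0.0239). Its groups overlapped, and leaving out DMSO replicate 1, DMSO replicate 2, pyrotinib replicate 1 or pyrotinib replicate 3 ended the call (adjusted p 0.0986, 0.0955, 0.0965 and 0.102). Hotairm1 averaged 3.39 ± 0.288 CPM with pyrotinib and 5.01 ± 1.30 CPM with DMSO, a difference that did not pass (edgeR adjusted p = 0.092). Hoxd3os1, Hoxb3os, Hoxb5os, Sp3os, Dlx1as, Zeb2os and Rab10os did not pass, with log2 fold changes from -0.40 to 1.03.

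Among the other abundant members 9430018G01Rik was higher with pyrotinib. It averaged 45.1 ± 2.67 CPM with pyrotinib and 34.8 ± 1.54 CPM with DMSO (log2 fold change 0.38, edgeR adjusted p = 0.00966). The call of 9430018G01Rik was lost without DMSO replicate 3 (0.0656) and with the GC correction (0.164). Brip1os, 4930565N06Rik and 1700109K24Rik did not pass, with log2 fold changes of 0.22, -0.30 and -0.36 (edgeR adjusted p = 0.0887, 0.0692 and 0.075). With the GC correction 4930565N06Rik and 1700109K24Rik did pass, at -0.50 and -0.49 (adjusted p = 0.0022 and 0.0166). The ratio of 4930565N06Rik to the Golgi gene Golgb1 fell by 0.50 ± 0.15 on the log2 scale (limma adjusted p = 0.0153). Leaving out DMSO replicate 3, pyrotinib replicate 2 or pyrotinib replicate 3 ended that call (0.0540, 0.0780 and 0.0723), while with the GC correction the ratio change was -0.92 (adjusted p = 4.4e-05). Gm47547, inside Dydc2, had 13.0, 13.9 and 15.1 CPM in pyrotinib libraries, against 8.99, 6.14 and 8.11 CPM in DMSO libraries (log2 fold change 0.85 ± 0.16, edgeR adjusted p = 0.00123). Its sense gene had 9 reads in all.

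Several further rises of about 2-fold or more were measured on low counts. 1700027A07Rik had 3.52, 3.32 and 3.33 CPM in pyrotinib libraries, against 1.93, 0.512 and 1.06 CPM in DMSO libraries (log2 fold change 1.54 ± 0.38, edgeR adjusted p = 0.00637). It lies inside a readthrough model, Gm49510, and also overlaps Sh3bp1. Gm4673, at the end of the lipoprotein receptor gene Lsr, averaged 4.26 ± 0.394 CPM with pyrotinib and 2.12 ± 0.292 CPM with DMSO (edgeR adjusted p = 0.00832). Both calls held without each library. A930024E05Rik, Gm10516 and Zbtb11os1, whose promoters are printed above, run away from the chromatin genes Kdm2b and Rcor3 and the zinc finger gene Zbtb11. They averaged 2.96 ± 0.570, 3.18 ± 0.338 and 2.76 ± 0.181 CPM with pyrotinib, and 1.42 ± 0.358, 1.54 ± 0.345 and 1.37 ± 0.148 CPM with DMSO. Their groups did not overlap, and edgeR adjusted p were 0.0241, 0.0194 and 0.0269. Gm10516 lost its call without DMSO replicate 2 (0.0907), while A930024E05Rik kept it in 2 and Zbtb11os1 in 1 of the 6 fits that left out a library, with adjusted p of up to 0.102 and 0.0858. Gm37768, 6330562C20Rik, Gm17259, C730002L08Rik, Gm35853 and Gm20632 rose by 0.87 to 1.16 on the log2 scale and each lost its call in at least 2 of those 6 fits, with adjusted p of up to 0.0708, 0.115, 0.172, 0.0661, 0.179 and 0.128. The GC correction ended the calls of Gm17259 and C730002L08Rik too (0.0804 and 0.0833).

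The median change differed in sign with the arrangement of the pair, which the choice of members did not use. Of the 359 pairs, 181 had the antisense gene inside the sense gene, 89 were head to head, 75 were tail to tail and 14 had the sense gene inside the antisense gene. Among 84 tested head-to-head members 12 were higher and 2 lower, 14.3% and 2.38%, against 13.2% and 12.8% of all genes. Their median log2 fold change was 0.34. Among 173 tested members inside a sense gene 6 were higher and 22 lower, 3.47% and 12.7%, with a median of -0.22. Among 73 tail-to-tail members 5 were higher and 6 lower, with a median of 0.01. No test was made between the arrangements.

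**Figure D3:**
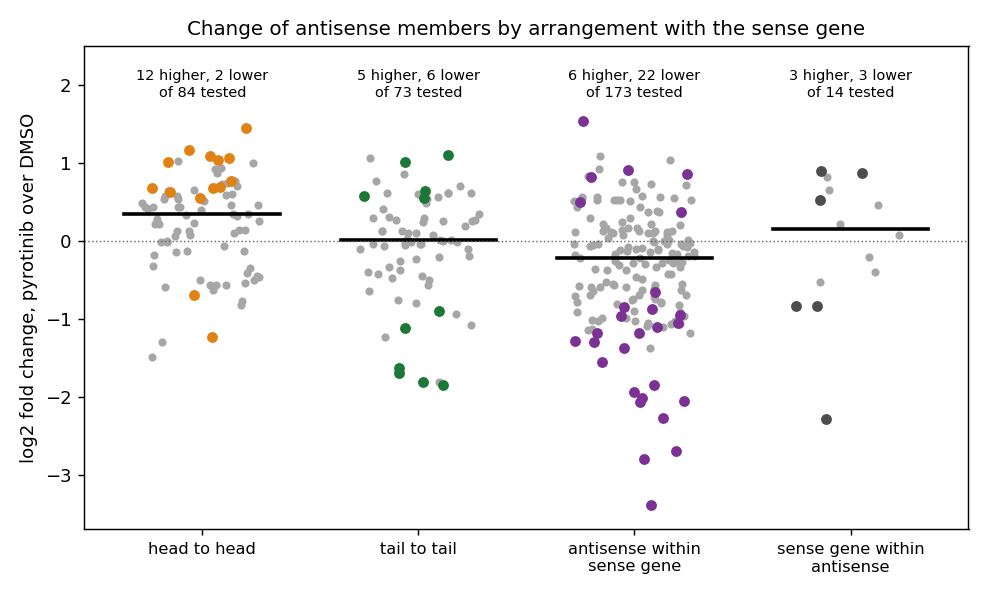
Log2 fold change of tested antisense members, pyrotinib over DMSO (vertical axis), by arrangement with the sense gene (horizontal axis); coloured points pass adjusted p 0.05, grey points do not, and black lines are medians. The medians are 0.34 head to head, 0.01 tail to tail, -0.22 for antisense within sense gene and 0.15 for sense gene within antisense.

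Over the 6 fits that left out a library the median lay between 0.19 and 0.42 head to head and between -0.32 and -0.16 inside a sense gene. The head-to-head median was 0.32 with the GC correction, 0.26 with pyrotinib replicate 2 alone and 0.30 without DMSO replicate 2. For members inside a sense gene it was -0.30, -0.35 and -0.16 in the same settings. Without DMSO replicate 2 there were 2 calls head to head, both higher, and 4 higher and 12 lower inside a sense gene. The 12 are 6.86% of that set, close to the 6.81% of all genes that were lower in the same fit, where 6.67% were higher. Without pyrotinib replicate 3 there were 3 higher and 2 lower head to head, and 4 higher and 16 lower (8.94%) inside, beside 7.79% higher and 7.13% lower of all genes. Summed over its 89 members, the head-to-head set had 488, 455 and 543 CPM in pyrotinib libraries, against 380, 353 and 374 CPM in DMSO libraries. Without Tug1 the sums were 239, 246 and 259 CPM with pyrotinib and 211, 211 and 220 CPM with DMSO. The 181 members inside a sense gene summed to 560, 501 and 558 CPM in pyrotinib libraries and 539, 602 and 553 CPM in DMSO libraries, with the groups overlapping. Other RNA classes of the annotation had medians of -0.18 (405 genes to be experimentally checked, called TEC), -0.15 (48 sense intronic genes) and 0.48 (52 bidirectional promoter RNAs). Classes not defined by such an arrangement also had medians away from that of protein-coding genes, which was 0.01. These were -0.19 for 647 processed pseudogenes, 0.15 for 378 long intergenic RNAs and 0.12 for 226 processed transcripts.

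Inside a sense gene, the 94 tested members that share exon bases with it had 14 calls, all lower, and a median of -0.28. The 79 that share none had 6 higher and 8 lower calls and a median of -0.13, and the difference between these sets was not tested. All 22 lower members inside a sense gene had a tested sense gene. Of these sense genes 6 passed, all lower, and 16 did not pass, and 20 of the 22 had a negative log2 fold change, with a median of -0.20. The antisense genes themselves had a median of -1.33, and the ratio fell in 15 of the 22. Both follow in part from choosing members called lower, so they are a description. Of the 12 higher head-to-head members 10 had a tested sense gene, of which 4 were higher and 8 had a positive log2 fold change. Among all tested genes 13.2% were higher, 12.8% were lower and 50.3% had a positive log2 fold change. Lower members had a median of 1080 exon bases and 0.0825 times the sense FPKM, and higher members a median of 3652 exon bases and 0.675 times the sense FPKM. Median GC content was 49.0% in lower members, 45.8% in higher members and 48.7% in those not called.

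The sense genes were measured far more deeply, at a median of 53.5 CPM against 1.76 CPM for members. Of 348 distinct sense genes 320 were tested, 57 were higher and 39 lower, which is 17.8% and 12.2%, against 14.3% and 13.5% of protein-coding genes. The median fold of the called ones was 1.34, and 7 changed at least 2-fold. Small changes are less likely to pass on few reads, so these folds are not comparable with those of called members. Among called members the smallest rise was still 0.38 on the log2 scale. Among 316 pairs with both genes tested, 8 had both higher, 8 both lower and 1 opposite calls. In 35 pairs only the antisense gene was called, in 75 only the sense gene and in 189 neither. The log2 fold changes of the partners had a Pearson r of 0.33 and a Spearman rho of 0.31 across these pairs, given as a description, since partners share libraries, depth and locus.

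**Figure D4:**
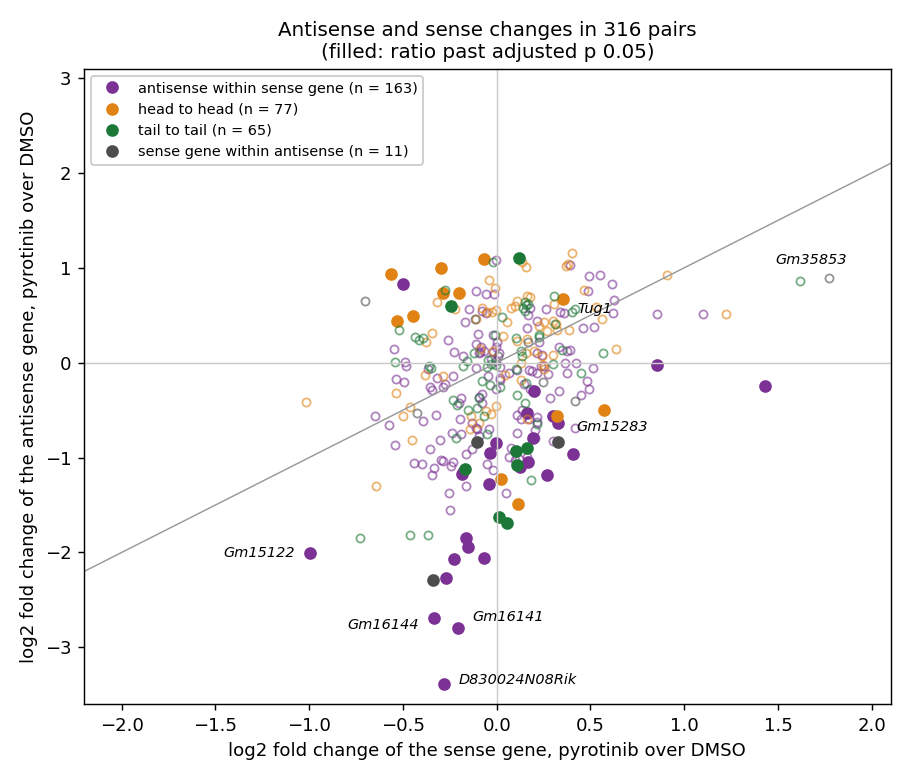
Log2 fold change of the antisense gene (vertical axis) against that of its sense gene (horizontal axis), pyrotinib over DMSO, in 316 pairs; colours give the arrangement, filled points have a ratio past adjusted p 0.05, and the grey diagonal marks equal change. Most filled points lie below the diagonal, 37 of 48, with D830024N08Rik at -3.39 against -0.28 for Tecr.

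The ratio of antisense to sense tests the difference within a pair directly. It was fitted with limma on log2 CPM over all 2017 opposite-strand pairs of tested genes. Of the 316 member pairs 48 passed, 15.2%, against 18.8% of all pairs. The antisense side was relatively higher in 11 and lower in 37, which is 3.48% and 11.7%. Over all pairs the first gene was relatively higher in 7.93% and lower in 10.9%. A pair with a single antisense gene had that gene first, and other pairs were ordered by gene ID. The split over all pairs, which include the member pairs, is therefore not a baseline for antisense genes. The median change of the ratio was -0.17 over member pairs and -0.01 over all pairs, with the sign set in the same way. Inside a sense gene 24 ratios fell and 1 rose, and head to head 4 fell and 8 rose. Without each library in turn 8 ratios were called again, all of them lower, beside 37 lower of the 48 called with all libraries.

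Hif1a, the oxygen-regulated transcription factor gene, and Gm15283 (chr12:73843039-73949814, - strand), which spans it, were the pair with opposite calls. Gm15283 had 2.30, 1.54 and 2.39 CPM in pyrotinib libraries, against 2.53, 4.48 and 4.12 CPM in DMSO libraries. The groups are close, with pyrotinib replicate 3 just below DMSO replicate 1. Hif1a had 474, 378 and 436 CPM in pyrotinib libraries, against 360, 329 and 336 CPM in DMSO libraries. The log2 fold changes were -0.84 ± 0.30 for Gm15283 (edgeR adjusted p = 0.047) and 0.33 ± 0.09 for Hif1a (edgeR adjusted p = 0.0115). The ratio fell by 1.11 ± 0.30 on the log2 scale (limma adjusted p = 0.00857). The call of Gm15283 was kept in 1 of the 6 fits that left out a library, with adjusted p of up to 0.192 without DMSO replicate 2. That of Hif1a ended with DMSO replicate 2, DMSO replicate 3 or pyrotinib replicate 1 left out (0.0608, 0.0633 and 0.0819) and with the GC correction (0.0903). The ratio was lost without DMSO replicate 2 or 3 (0.0641 and 0.0564).

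**Figure D5:**
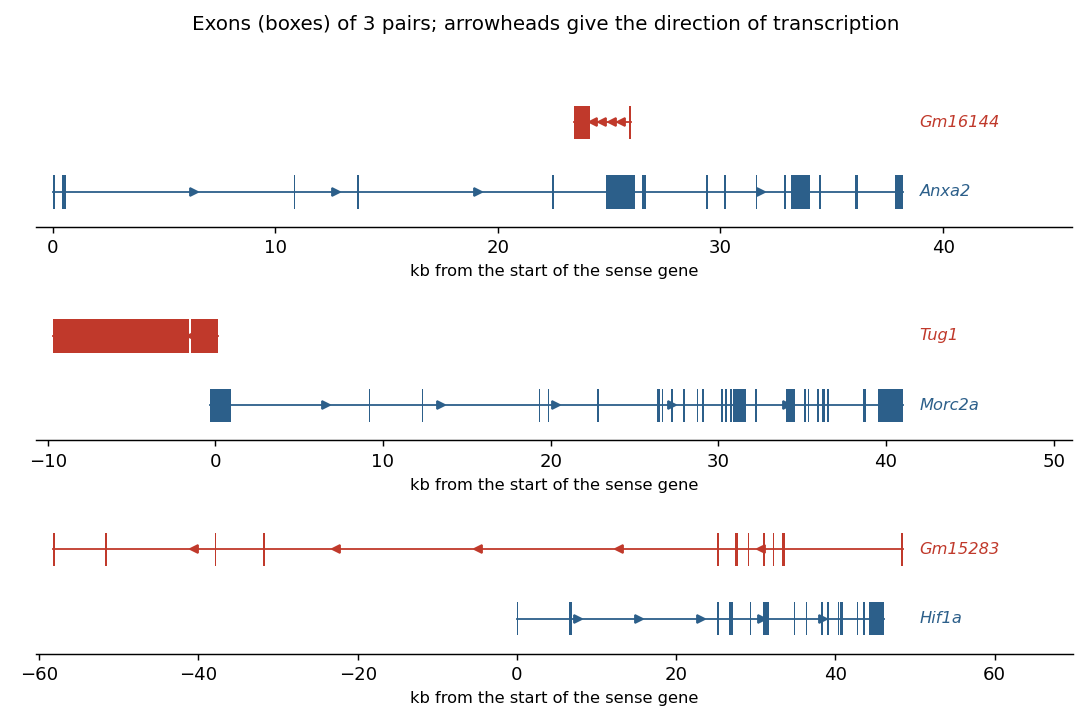
Exons (boxes) and extents (lines) of 3 pairs, drawn to scale in kb from the start of the sense gene (horizontal axes); red is the antisense gene, blue the sense gene, and arrowheads give the direction of transcription. Gm16144 lies inside Anxa2, Tug1 overlaps the first exon of Morc2a and runs away from it, and Gm15283 spans Hif1a.

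Some of the larger changes of a sense gene were at Krt80, a keratin gene, and at the homeobox gene Hoxd3. Krt80 averaged 2.44 ± 0.180 CPM with pyrotinib and 0.715 ± 0.429 CPM with DMSO, with no overlap (log2 fold change 1.77 ± 0.41, edgeR adjusted p = 0.00472). Its antisense gene Gm35853 averaged 2.95 ± 0.602 CPM with pyrotinib and 1.59 ± 0.0231 CPM with DMSO (0.89, adjusted p = 0.0413). Hoxd3 had 4.22, 4.79 and 4.27 CPM in pyrotinib libraries, against 2.86, 1.54 and 1.31 CPM in DMSO libraries (1.22 ± 0.30, adjusted p = 0.00605). Hoxd3os1 averaged 6.15 ± 1.54 CPM with pyrotinib and 4.31 ± 0.304 CPM with DMSO, which did not pass (0.51, adjusted p = 0.0959). Neither ratio passed, so a difference in change within these pairs is not shown (limma adjusted p = 0.113 and 0.0706). Aldh1a1, a retinaldehyde dehydrogenase gene, averaged 273 ± 10.5 CPM with pyrotinib and 194 ± 11.3 CPM with DMSO (0.49, adjusted p = 0.000359), and C730002L08Rik inside it 4.48 ± 0.530 CPM with pyrotinib and 2.37 ± 0.437 CPM with DMSO.

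Antisense genes at the drug's target pathway were looked at outside the naming rule and chosen after their values were seen. Egfros, inside the Egfr gene with no shared exon base, had 61 reads in all. It had 0.960, 0.492 and 0.565 CPM in pyrotinib libraries, against 0.799, 0.384 and 0.686 CPM in DMSO libraries, and the groups overlapped (log2 fold change 0.11 ± 0.52, edgeR adjusted p = 0.902). Egfr averaged 674 ± 26.9 CPM with pyrotinib and 669 ± 20.8 CPM with DMSO (0.01, adjusted p = 0.923). Jun, a transcription factor gene induced by growth factor signalling, averaged 74.3 ± 3.95 CPM with pyrotinib and 97.0 ± 11.7 CPM with DMSO (-0.38, edgeR adjusted p = 0.00721; 0.0611 without DMSO replicate 2). Junos, head to head with it, averaged 2.44 ± 0.578 CPM with pyrotinib and 2.67 ± 0.461 CPM with DMSO (-0.13, adjusted p = 0.784). At the depth of Egfros and Junos, with SE of 0.52 and 0.30, a change of the size seen for Jun was not detectable.

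Genes that handle antisense RNA were read from lists, beside 13.2% higher and 12.8% lower among all genes. Of 17 tested genes of transcription termination 5 passed, all higher. Among them are Pcf11, which dismantles the elongation complex at ends of genes, Ints6, a subunit of the Integrator complex, and Cstf3 and Cstf2 of the cleavage stimulation factor. Pcf11 averaged 76.4 ± 10.2 CPM with pyrotinib and 51.6 ± 3.44 CPM with DMSO (log2 fold change 0.57, edgeR adjusted p = 0.000881), and Ints6 37.9 ± 3.97 CPM with pyrotinib and 24.3 ± 3.27 CPM with DMSO (0.64, adjusted p = 0.00111). Of 19 tested genes of the nuclear exosome and its adaptors 1 passed, Zfc3h1, which was higher. Of 20 tested genes of double-stranded RNA recognition and RNA interference 6 were higher and 2 lower. The helicase gene Dhx9 averaged 144 ± 12.4 CPM with pyrotinib and 99.3 ± 2.80 CPM with DMSO (0.54, adjusted p = 0.000317). The other higher genes were Dgcr8, Xrn1, Eif2ak2, Ago1 and Ddx58. Of the 2 lower genes 1 was the editing gene Adarb1, and the other is not reported here. Ago1 and Ddx58 lie outside the naming rule and were named after their values were seen. The medians of the 3 lists were 0.14 for termination, -0.04 for the exosome and 0.14 for double-stranded RNA.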

How the data were processed

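Members, gene lists and tests were chosen with earlier results of these data known. The deposited counts are whole-number reads per gene, and the deposited FPKM table was made by the authors from the same libraries. The tools named in the submitters' processing notes are HISAT2 2.0.5, fastp, DESeq2 1.20.0 and featureCounts 1.5.0-p3, with build mm10. For strand setting and annotation release the sources used here give nothing. Poly(A) RNA was read in pairs of 150 bp from fragments of 370 to 420 bp, per the labels' protocols.

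Counts were fitted in R 4.3.3 with edgeR 4.0.16 (filterByExpr with a minimum count of 10 and total of 15, TMM, quasi-likelihood F-test, two-sided) over all genes, without a replicate block. A standard error of a log2 fold change is approximate. Ratios were tested with limma 3.58.1 (trend) on the difference of log2 CPM with a prior count of 2. Exon positions and GC content came from GENCODE M21, where all 379 members were found and 375 had the same position. For 27 rows whose symbol had become a date, the symbol was read from the reference by gene ID. A gene with no read in a library lies below the level of 3 counts, 0.186 to 0.200 CPM, which covers counting error only.

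The named genes are the 12 largest called rises and falls among members of at least 1 CPM on average, the 10 largest sums, the members of the list of characterised antisense RNAs, pairs with opposite calls, pairs with the antisense gene above the sense gene, the rows beside the limit, and their sense genes. For each other list up to 6 genes of smallest adjusted p may be named. Some genes that this rule names are not reported here. The pairs of libraries within a group were not identical, with chi-square per degree of freedom from 3.93 to 14.8. On simulated data the gene fit, over 13884 genes, recovered 60%, 78%, 96% and 88% of 50 genes each changed 1.5-fold, 2-fold, 3-fold and 4-fold, with 3.59% of calls false, and the pair fit, over 1927 pairs, 69.2% of 52 changed pairs with 2.5% false. The changed genes were drawn from all tested genes, and the simulated libraries had no GC slope. These rates therefore do not describe the members, which have fewer reads. Alternatives were DESeq2 1.42.0, other scalings, filters, prior counts and thresholds, a replicate block, a GC correction (lowess, span 0.3), log2 of FPKM plus 1 or 0.1 with limma, pyrotinib replicate 2 alone and each library left out.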

Additional observations from a re-analysis of the deposited data

How the results depend on the processing

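The 60 called members, 96 called sense genes and 48 called ratios were within 1.5 times their count under DESeq2, median-ratio and upper-quartile scaling, the GC correction and a minimum of 1 CPM in 3 libraries, where these were run. With limma on log2(FPKM + 0.1) the counts were 29 members and 42 sense genes, on log2(FPKM + 1) 30 and 40, and on log2(FPKM + 1) with no filter 7 and 21. In these fits 8.52%, 8.03% and 2.11% of all genes were called, beside 26.0% in the main fit. At an adjusted p under 0.01 they were 24 members, 56 sense genes and 18 ratios. With pyrotinib replicate 2 alone against DMSO they were 15, 36 and 15, in a fit that assumes the lone library varies like the others. With no count filter 16 ratios passed, and 7 when the fit was made on pairs that share no exon base. The counts at 0.01 and with pyrotinib replicate 2 alone, and these ratio counts, are given without the share of all genes or pairs. They therefore do not show whether members lost calls more often than other genes. Leaving out each library gave 23 to 70 members, 59 to 145 sense genes and 17 to 44 ratios, beside 13.5% to 35.9% of all genes. The lowest counts of all 3 came without DMSO replicate 2. With the replicate block 63 members, 115 sense genes and 56 ratios passed, beside 30.2% of all genes. The labels do not say whether the replicate numbers pair the libraries. Deviations from the group means correlated at 0.005, 0.076 and 0.0226 between same-numbered libraries. Pyrotinib replicates 1 and 2 correlated best with their own number, and replicate 3 did not. With 3 libraries a group these values cannot settle the pairing. With all 93 named results, 1388 values under alternatives kept their call, 248 lost it, 30 gained it and 0 changed sign past the threshold. The cause of these shifts was not tested. Low counts limit what can be seen: 119 members had fewer than 100 reads over 6 libraries.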
